A study of Mus musculus with 48 samples.

Results

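Just before birth, at E18.5 (embryonic age in days), the vastus intermedius, the deep slow-biased head of the mouse quadriceps, was compared with the vastus lateralis, its superficial fast-biased head. Both muscles were taken from male embryos of FVB/NJ, an inbred and genetically unmodified mouse strain, and RNA sequencing gave 6 vastus intermedius and 6 vastus lateralis libraries from 6 embryos, which are 12 of the 48 libraries of the series. The other 36 libraries came from E18.5 soleus and gastrocnemius and from the same 4 muscles of adult males. No animal was treated. Each column of the count table carries a date tag in place of an embryo number. These 6 tags are lettered A to F here, each tag is called a collection, and the vastus intermedius and vastus lateralis libraries of a collection were taken as a pair. Results are given with all 6 pairs and without the pair whose vastus lateralis library had the most Myh7, a level that goes against its label.

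Skeletal muscle fibres are slow or fast by the myosin heavy chain they make. Slow fibres contain the Myh7 product together with slow light chains and troponins and rely on mitochondrial oxidation, whereas fast fibres contain the products of Myh2, Myh1 or Myh4, buffer calcium with parvalbumin and lean more on glycolysis. Before birth most myosin heavy chain is still of the embryonic (Myh3) and perinatal (Myh8) kinds, and the adult fast isoforms take over after birth.

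Total counts of the 12 libraries ranged from 20.7 to 29.7 M (median 24.9 M). With 0 counts observed, a level of up to 3 counts remains possible, which is 0.101 to 0.145 CPM (counts scaled to the library total). All values below are CPM scaled by TMM (trimmed mean of M-values, which corrects for library composition) unless total-count CPM is named. All 10 fibre markers used as a check of the tissue label were present in every library, with summed levels of 34771 to 57467 CPM in vastus intermedius and 38914 to 61016 CPM in vastus lateralis. Both libraries of collection F had the lowest fibre sums of their muscle. Within each muscle, no libraries agreed within sampling noise (chi-square per degree of freedom 12.8 or more over 30 combinations). In bulk muscle, fewer cells of a type and less RNA per cell cannot be told apart.

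Slow fibre genes divided the collections before any test was made. In collections A, C, D and E, Myh7, the slow and cardiac beta myosin heavy chain (mm10 chromosome 14, 54970684 to 54994626), lay at 1399, 2118, 3196 and 742 CPM in vastus intermedius, against 48.5, 93.1, 229 and 117 CPM in vastus lateralis. In collection B the library labelled vastus intermedius held 13.7 CPM, the lowest of all 12, and the library labelled vastus lateralis held 1519 CPM. Collection F also ran against the labels, more weakly, with 54.2 CPM in vastus intermedius and 179 CPM in vastus lateralis. Among the vastus lateralis libraries, collection B stood at 1553 total-count CPM and the next highest, collection D, at 227, so collection B is the pair left out by the rule. The gastrocnemius and soleus libraries of collection B, at 798 and 3338 total-count CPM, had the highest Myh7 of their own muscles.

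**Figure D1:**
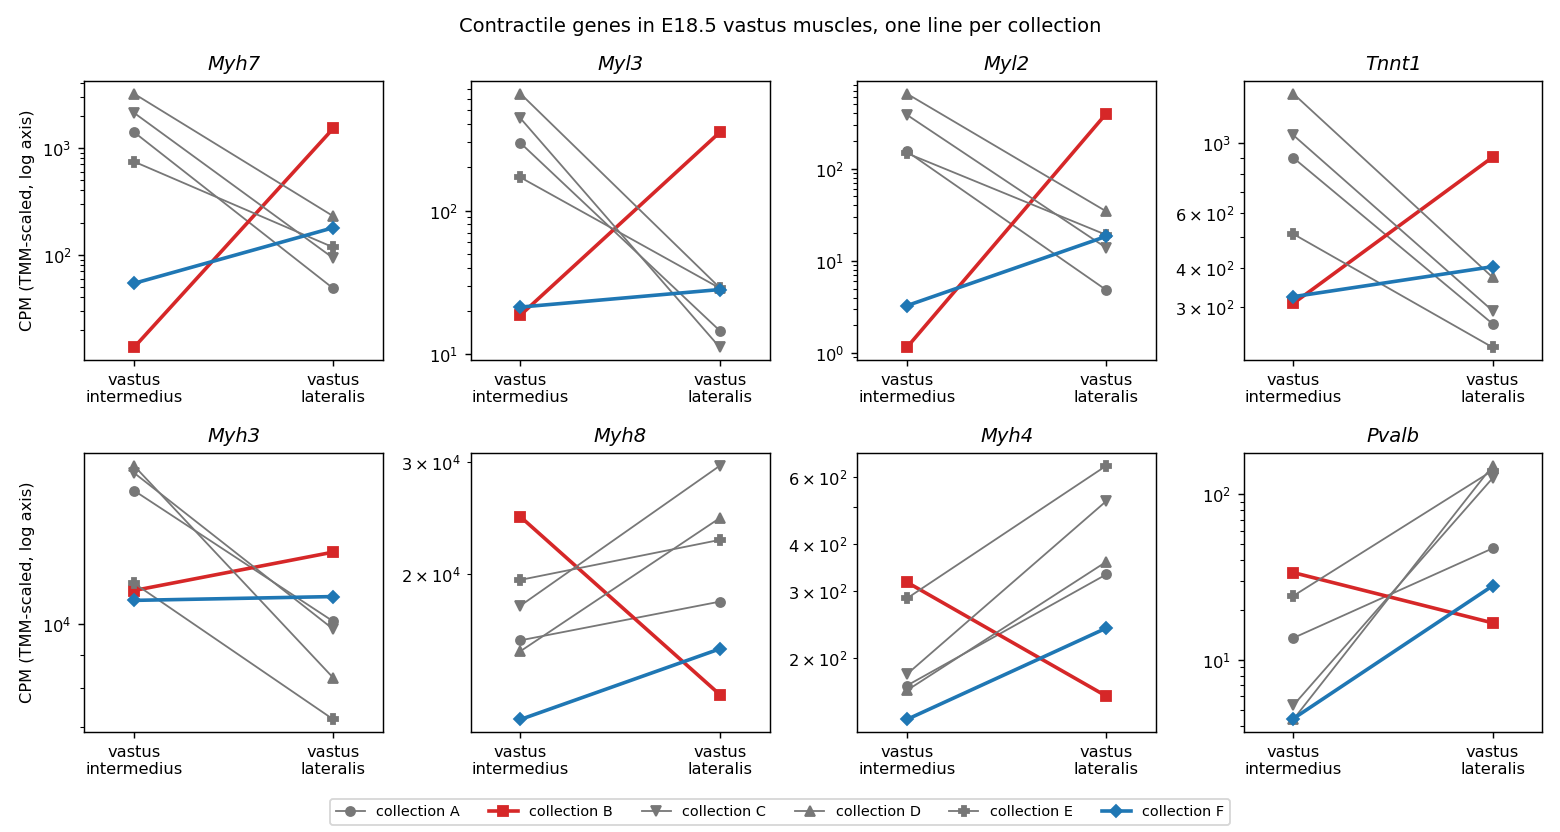
Levels of 8 contractile protein genes in the 12 libraries, as TMM-scaled CPM on log axes, with vastus intermedius left of vastus lateralis and a line joining the libraries of a collection. Grey lines (collections A, C, D and E) fall from vastus intermedius to vastus lateralis for Myh7, Myl3, Myl2, Tnnt1 and Myh3, whereas the red line (collection B) rises in each of these panels; the blue line (collection F) rises for Myh7, Myl3, Myl2 and Tnnt1, is nearly flat for Myh3 and runs with the grey lines for Myh8, Myh4 and Pvalb.

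The other slow genes followed Myh7 collection by collection. Myl3, the slow essential light chain, had 170 to 652 CPM in vastus intermedius of collections A, C, D and E, against 11.1 to 28.9 CPM in vastus lateralis. In collection B it had 18.7 CPM in the library labelled vastus intermedius and 351 CPM in the one labelled vastus lateralis, and in collection F 21.2 and 28.1 CPM. Myl2, the slow regulatory light chain, ranged more widely still, with 651 CPM in vastus intermedius and 34.5 CPM in vastus lateralis of collection D, but 1.15 CPM in vastus intermedius and 396 CPM in vastus lateralis of collection B. Of the 20 slow sarcomere genes followed, 20 were higher in vastus intermedius in collection A, 17 in C, 19 in D and 19 in E, but 3 in B and 4 in F. The list median of the within-pair difference was 0.88, 1.11, 1.53 and 0.98 (log2) in A, C, D and E, and -0.79 in B and -0.20 in F.

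The bases just upstream of the genes at either end of this contrast are shown because the slow and fast sets moved in opposite directions within each of the 4 concordant collections. Each line gives the 200 bases before the outermost annotated start, read 5′ to 3′ on the gene's strand from RefSeq promoter sequence of build GRCm38.p6. Capitals mark matches, on either strand, to the E-box CANNTG, bound by myogenic bHLH factors, and to the MCAT element CATTCC, bound by TEAD factors.
Myh7: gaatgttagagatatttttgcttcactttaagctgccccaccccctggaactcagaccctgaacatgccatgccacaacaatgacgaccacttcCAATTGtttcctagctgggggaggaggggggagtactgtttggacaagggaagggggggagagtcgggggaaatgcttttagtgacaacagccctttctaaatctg
Myl3: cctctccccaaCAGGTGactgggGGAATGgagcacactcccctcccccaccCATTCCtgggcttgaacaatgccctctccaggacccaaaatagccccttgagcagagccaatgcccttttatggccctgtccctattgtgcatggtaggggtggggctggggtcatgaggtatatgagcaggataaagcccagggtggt
Tnnt1: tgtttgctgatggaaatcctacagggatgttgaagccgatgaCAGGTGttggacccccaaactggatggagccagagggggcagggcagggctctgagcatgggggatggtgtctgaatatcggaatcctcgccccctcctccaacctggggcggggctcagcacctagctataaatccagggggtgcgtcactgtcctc
Myh4: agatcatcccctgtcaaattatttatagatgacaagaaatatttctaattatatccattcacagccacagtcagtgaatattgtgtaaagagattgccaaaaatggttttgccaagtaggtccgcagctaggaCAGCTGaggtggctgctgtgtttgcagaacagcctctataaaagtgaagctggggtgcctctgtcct
Pvalb: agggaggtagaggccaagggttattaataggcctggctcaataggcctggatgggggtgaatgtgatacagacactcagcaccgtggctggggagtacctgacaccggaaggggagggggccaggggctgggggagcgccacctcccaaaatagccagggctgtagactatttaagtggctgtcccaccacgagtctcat
The windows are chr14:54994627-54994826 on the minus strand for Myh7, chr9:110763478-110763677 on the plus strand for Myl3, chr7:4515976-4516175 on the minus strand for Tnnt1, chr11:67237612-67237811 on the plus strand for Myh4 and chr15:78206401-78206600 on the minus strand for Pvalb. Myh7, Myl3, Tnnt1 and Myh4 each hold 1 E-box, and Myl3 alone among these windows holds MCAT matches, 2 of them on opposite strands. Pvalb holds neither. Of 11593 promoter windows of the same length, 56.6% hold an E-box and 9.64% an MCAT match, so an E-box by itself is common. For MEF2 only 1 pattern was searched, CTA and TAG with 4 bases of any kind between them. None of these 5 windows holds it, and 2.66% of all windows do. Other forms of the MEF2 site, such as those that start with TTA, were not searched, so a lack of MEF2 sites is not shown. A match is only a match of letters, and no binding was measured.

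As shares of the summed reads per base of 6 myosin heavy chain genes, the embryonic and perinatal forms made up most of the total. Myh3 took 42.6% ± 7.33 in vastus intermedius and 32.6% ± 9.84 in vastus lateralis, and Myh8 took 51.5% ± 9.41 and 63.0% ± 10.8 (mean ± SD, n = 6 each). Myh3 was the larger share in vastus intermedius in 5 of 6 pairs, and Myh8 the smaller in 5 of 6. Myh7 took 3.51% ± 3.36 in vastus intermedius and 1.26% ± 2.05 in vastus lateralis, higher in 4 of 6 pairs. Myh4, the fastest adult isoform, took 0.632% ± 0.196 in vastus intermedius and 1.18% ± 0.512 in vastus lateralis, lower in 5 of 6 pairs. Myh2 took 1.49% ± 0.220 in vastus intermedius and 1.66% ± 0.188 in vastus lateralis, also lower in 5 of 6 pairs. None of the 6 shares passed an exact two-sided sign-flip permutation test over the 6 pairs, where 0.03125 is the smallest p that 6 pairs allow. In that test p was 0.0625 for Myh2, 0.09375 for Myh4, 0.15625 for Myh3 and 0.1875 for Myh8. It was 0.3125 for Myh7 (0.375 adjusted over the 6 genes) and 0.6875 for Myh1. Without collection B the Myh7 share was 4.20% ± 3.24 in vastus intermedius and 0.423% ± 0.238 in vastus lateralis, and Myh3 was the larger share in vastus intermedius in all 5 pairs. These 5-pair shares are given as values, since the pair was chosen on Myh7. Reads of the myosin heavy chains can be shared among close paralogs, and these shares are uncertain to that extent.

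With all 6 pairs, no gene passed an adjusted p of 0.05 in the edgeR quasi-likelihood test with collection as a block (0 of 16196, 0%). At an unadjusted p under 0.05 there were 1280 genes (7.9%), and DESeq2 called 87, 49 of them higher and 38 lower in vastus intermedius. The same direction in all 6 pairs was seen for 685 genes (4.23%), and the groups did not overlap for 36 (0.222%). The median fold of all genes was -0.0034 (log2).

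The genes of lowest p were mostly lower in vastus intermedius, and most kept their direction in collection B. Collection B was part of this fit, so keeping direction there helped a gene to a low p and is not a separate result. Tmeff2, a transmembrane protein with follistatin and EGF-like domains (chromosome 1, 50900683 to 51187270), had 10.6 to 28.1 CPM in vastus intermedius (median 21.4) and 17.9 to 58.2 CPM in vastus lateralis (median 43.7). The within-pair difference was -0.65 to -1.40 (log2), lower in vastus intermedius in 6 of 6 pairs, although the groups overlap because both libraries of collection B were low. Its fold was -1.04 ± 0.11 (log2, SE), with adjusted p = 0.0563. Bmper, a secreted regulator of bone morphogenetic proteins (chromosome 9, 23223076 to 23485215), had 6.75 to 21.8 CPM in vastus intermedius and 18.8 to 44.6 CPM in vastus lateralis. It was lower in 6 of 6 pairs by -1.33 ± 0.19, with adjusted p = 0.108. Eps8, a regulator of actin filament ends, had 36.9 to 43.2 CPM in vastus intermedius and 49.2 to 64.3 CPM in vastus lateralis, with no overlap, and differed by -0.49 ± 0.06 (adjusted p = 0.0823).

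Gdpd2, a glycerophosphodiester phosphodiesterase, was also lower in 6 of 6 pairs, at 0.831 to 2.04 CPM in vastus intermedius and 1.26 to 8.06 CPM in vastus lateralis. Plvap, an endothelial diaphragm protein, was higher in 6 of 6 pairs, with 31.3 to 47.0 CPM in vastus intermedius and 20.2 to 30.3 CPM in vastus lateralis and no overlap. Also among the 10 lowest p-values, Camp, S100a8 and Stfa2 are genes of neutrophils and their precursors, highest in the collection B library labelled vastus lateralis at 9.92, 27.8 and 6.93 CPM. Adipoq, the adipocyte hormone adiponectin, rested on 1 library, the vastus lateralis of collection E, at 17.4 CPM against 0.618 CPM or less in the other 11. It passed without collection B (adjusted p = 0.00938), although it was lower in vastus intermedius in only 3 of those 5 pairs. Both libraries of collections C and D were at 0 CPM. None of the 10 genes passed the threshold with 6 pairs.

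Without collection B, 166 of 16044 genes passed (1.03%), 97 higher (0.605%) and 69 lower (0.43%) in vastus intermedius. Of the 166, 164 had the same direction in all 5 pairs, as did 2282 of all genes tested (14.2%). A shared direction helps a gene to pass a paired test and is not a separate result. Without the block for collection the count of called genes was 48, of which 42 were among the 166. The count changed with each further pair left out. Leaving out collection A, C, D or E in addition left 43, 4, 16 or 53 genes, and leaving out F gave 870, all 166 included. Vtn, vitronectin, a plasma and matrix glycoprotein that binds integrins (chromosome 11, 78499120 to 78502325), alone of the 20 largest changes with 1 direction in all 5 pairs passed under each alternative tried. It had 4.12 to 7.53 CPM in vastus intermedius and 15.4 to 30.0 CPM in vastus lateralis, with no overlap among these 10 libraries, and fell by 2.13 on the log2 scale (SE 0.17, adjusted p = 0.00465). In collection B it was 6.05 and 6.09 CPM.

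**Figure D2:**
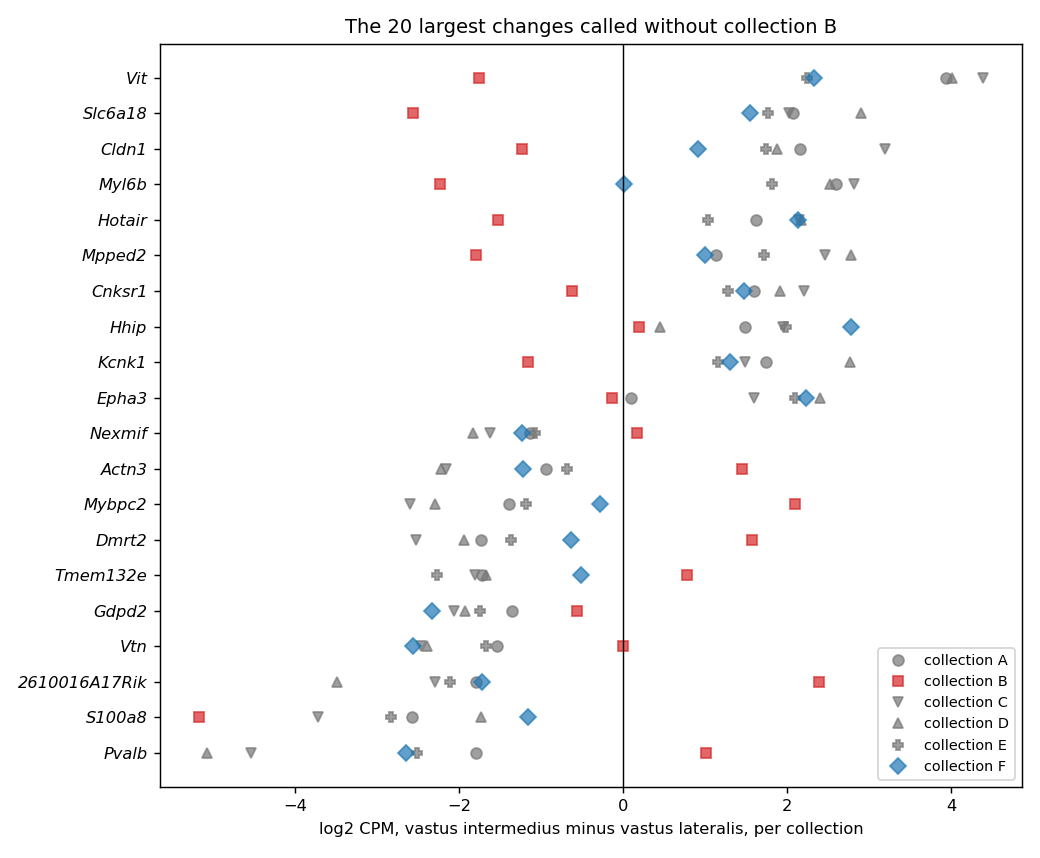
Within-pair differences (log2 CPM, vastus intermedius minus vastus lateralis) of the 10 genes with the largest rise and the 10 with the largest fall among those called without collection B with the same direction in all 5 pairs, 1 symbol per collection. The 5 collections in the fit lie on 1 side of 0 for each gene, with Myl6b in collection F at 0.00 and Epha3 in collection A at 0.09 nearest to it; collection B, in red, lies on the other side for 16 of the 20 and on the same side for Hhip, Gdpd2, Vtn and S100a8.

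Among the rises, Vit, vitrin, a matrix protein with von Willebrand A domains (chromosome 17, 78508051 to 78627409), had 0.889 to 4.37 CPM in vastus intermedius and 0 to 0.444 CPM in vastus lateralis without collection B. Its fold was 3.88 ± 0.53 (log2, SE; adjusted p = 0.022), and its vastus lateralis values lie near the floor, with collection A at 0. Slc6a18, a neutral amino acid transporter known from kidney, rose by 2.17, Cldn1, a tight junction claudin, by 2.00 and Mpped2, a metallophosphodiesterase, by 1.83. Myl6b, a myosin light chain of slow and embryonic muscle, rose by 2.00 ± 0.37, with 76.7 to 409 CPM in vastus intermedius and 37.2 to 76.5 CPM in vastus lateralis. Kcnk1, a background potassium channel, rose by 1.73 and Cnksr1, a scaffold of Ras signalling, by 1.80. In collection B each of these 7 genes ran the other way, and the collection B vastus lateralis value of each was the highest of that muscle.

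Among falls with the same direction in all 5 pairs, the largest was that of Pvalb, parvalbumin, the calcium buffer of fast fibres (chromosome 15, 78191112 to 78206400), which had 4.36 to 24.4 CPM in vastus intermedius and 28.01 to 149 CPM in vastus lateralis without collection B. These groups did not overlap, and Pvalb fell by 3.23 (log2, SE 0.45; adjusted p = 0.0231). Dmrt2, a transcription factor of the dermomyotome, fell by 1.61 and its neighbour 2610016A17Rik by 2.53. The transcripts lie side by side on chromosome 19, and their reads can be told apart only if strand was used in counting, which no source used here states. Tmem132e, a transmembrane protein needed for hearing, fell by 1.62 and Nexmif, a neurite extension factor, by 1.39. S100a8 fell by 3.09, at 4.74 CPM or less in these 10 libraries. Groups did not overlap for 420 genes (2.62%) among these 10 libraries.

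Of the 20 slow sarcomere genes, 4 rose without collection B and none fell, against 0.605% of all genes that rose. They were Csrp3, the muscle LIM protein of the Z-disc, by 0.75 ± 0.08, Myoz2, the slow calsarcin, by 0.86 ± 0.15, Ankrd2, a stretch-responsive ankyrin protein, by 0.99 ± 0.17, and Myl6b. Csrp3 had 303 to 513 CPM in vastus intermedius and 191 to 292 CPM in vastus lateralis, with no overlap. Of the core slow genes, Myl3, Tnnt1 and Tnni1 did not pass, and collection F ran the other way for each of them. Myl3 differed by 3.44 ± 0.78 (adjusted p = 0.0805), Tnnt1, slow troponin T, by 1.32 ± 0.30 (0.0809) and Tnni1, slow troponin I, by 0.65 ± 0.16 (0.0974). The list median was 0.93 (log2), beside -0.0038 over all genes tested. The pair was left out for its Myh7, and genes that follow Myh7 are not independent of that choice. Without collections B and F, 16 of the 20 rose and none fell, against 3.19% of all genes that rose. Collections B and F are those in which most slow genes ran against the labels, so that count is fixed in part by leaving both out, and nothing is read from it or from the other counts given without both.

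Fast sarcomere genes took the opposite direction. Without collection B, 5 of 18 fell and none rose, against 0.43% of all genes that fell. All 5 were higher in vastus intermedius in collection B, from 0.33 (Mylk2) to 2.09 (Mybpc2, log2). That pair was left out for its Myh7, and genes that move against Myh7 are not independent of that choice. Myh4 had 137 to 287 CPM in vastus intermedius and 239 to 643 CPM in vastus lateralis and fell by 1.12 (log2, SE 0.09; adjusted p = 0.00465). Actn3, the fast Z-disc actinin, fell by 1.44 ± 0.23, Mybpc2, fast myosin-binding protein C, by 1.56 ± 0.29, Mylk2, the skeletal myosin light chain kinase, by 0.36 ± 0.06, and Pvalb as above. Over the whole list, 17 of the 18 fast genes were lower or equal in vastus intermedius in collection F, a pair that entered this fit. Myh2 and Myh1, the other adult fast isoforms, differed by -0.19 ± 0.07 (adjusted p = 0.208) and 0.16 ± 0.20 (0.744). The list median was -0.21, and members such as Tnnt3 (-0.23) and Mylpf (-0.10) differed little.

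Of 11 developmental sarcomere genes, Nrap, a scaffold of myofibril assembly, rose by 0.29 ± 0.05 without collection B, where 0.605% of all genes rose. Nrap was higher in 6 of 6 pairs, including collection B. Myh3 differed by 0.64 ± 0.13 (adjusted p = 0.0589) and Myh8 by -0.44 ± 0.09 (0.058). Without collections B and F, 4 of the 11 passed as higher and 1, Myh8, as lower. None of the 38 regulators of fibre type passed without collection B. Prox1, a homeodomain factor that favours slow genes, differed by 0.73 ± 0.26 (adjusted p = 0.21), and Sox6, a repressor of slow genes, by -0.42 ± 0.09 (0.0724), with 66.2 to 82.6 CPM in vastus intermedius and 86.8 to 110 CPM in vastus lateralis. Tbx15, which favours glycolytic fibres, differed by -0.25 ± 0.07 (0.126). Without collections B and F, 7 regulators passed as higher and 3 as lower, where 3.19% and 2.28% of all genes did.

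Some genes of fuel use were also called. Of 26 glycolysis and glycogen genes, 4 fell and none rose without collection B, against 0.43% of all genes that fell. All 4 were higher in vastus intermedius in collection B, the pair left out for its Myh7, from 0.27 (Phka1) to 1.03 (Gpd1, log2). Pgm1, phosphoglucomutase, fell by 0.57 ± 0.09, with 181 to 280 CPM in vastus intermedius and 230 to 417 CPM in vastus lateralis. Gpd1, glycerol-3-phosphate dehydrogenase, fell by 0.61 ± 0.11, Phka1, the muscle regulatory subunit of phosphorylase kinase, by 0.48 ± 0.08 and Pfkl, a phosphofructokinase, by 0.31 ± 0.06. Of 25 genes of fatty acid uptake and oxidation, 2 rose, against 0.605% of all genes. They were Pdk4, a brake on pyruvate oxidation, by 1.16 ± 0.19 and Fabp3, the muscle fatty acid binding protein, by 0.89 ± 0.15. In collection B both were lower in vastus intermedius, at -1.16 and -0.46 (log2). None of the 30 oxidative phosphorylation genes of the list, which are encoded in the nucleus, passed, although 26 were higher in vastus intermedius in collection A, 25 in C, 25 in D and 29 in E, against 14 in B and 8 in F. Without collections B and F, the pairs with the fewest members higher, 14 of the 30 rose and none fell, where 3.19% and 2.28% of all genes did. Outside the list, 4 subunits encoded in mitochondrial DNA rose without collection B, named after their values were seen. No other subunit encoded there was called in that fit, so a rise of the whole set is not shown. CYTB of complex III rose by 0.48 ± 0.08, ND4 and ND1 of complex I by 0.40 ± 0.06 and 0.33 ± 0.06, and COX1 of complex IV by 0.40 ± 0.07 (adjusted p = 0.0324, 0.0306, 0.0455 and 0.0439). In collection B each ran the other way, by 0.22 (log2) or less.

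**Figure D3:**
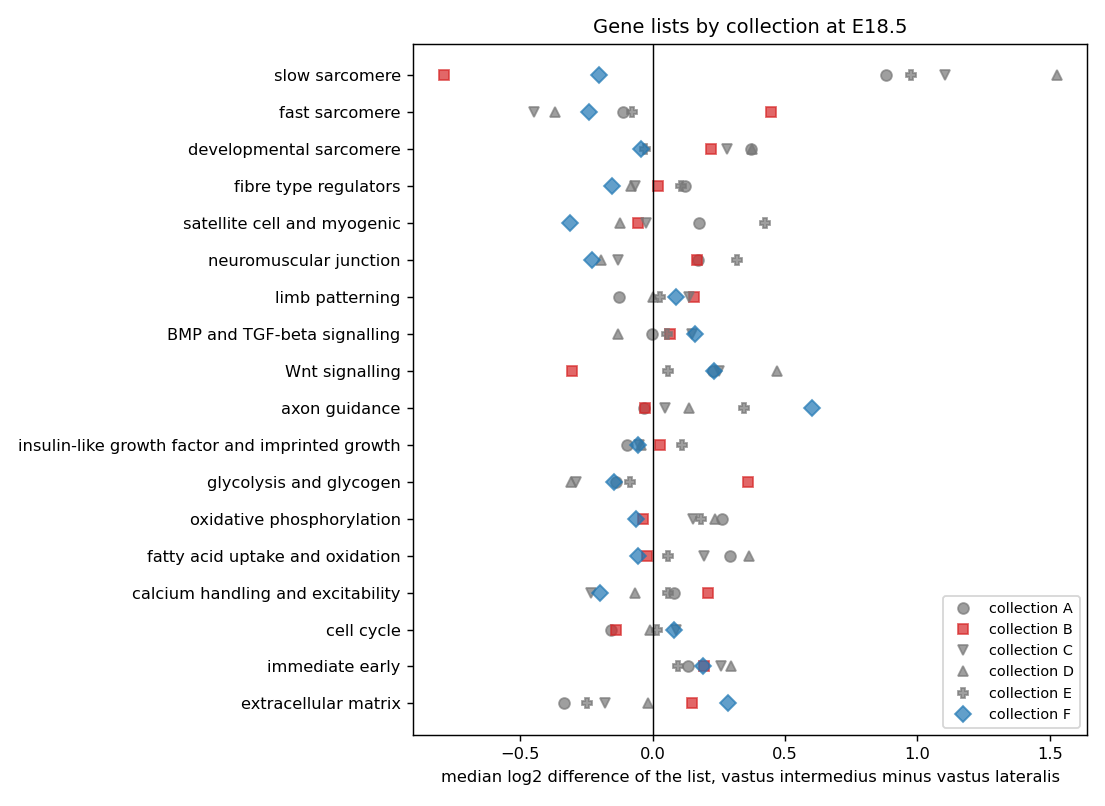
Median within-pair difference (log2 CPM, vastus intermedius minus vastus lateralis) of 18 gene lists, 1 symbol per collection. For slow sarcomere genes collections A, C, D and E lie between 0.88 and 1.53 and collections B and F below 0, whereas for fast sarcomere and glycolysis genes collection F lies with the other 4 below 0 and collection B alone above it.

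Secreted signals and guidance molecules were also among the calls without collection B. Of 29 Wnt pathway genes, 2 rose, against 0.605% of all genes, and these were the agonists Rspo3 and Rspo2, by 1.61 ± 0.20 and 1.22 ± 0.22. In collection B both were lower in vastus intermedius, at -1.57 and -0.96 (log2). Rspo3 had 7.25 to 22.0 CPM in vastus intermedius and 2.91 to 5.54 CPM in vastus lateralis, with no overlap. Of 31 genes of BMP and TGF-beta signalling, 3 fell and none rose, against 0.43% of all genes that fell. Among them, Fst, follistatin, which binds activins and myostatin, fell by 0.99 ± 0.12 and Bmper by 1.31 ± 0.21. Fst had 25.5 to 35.7 CPM in vastus intermedius and 49.7 to 74.0 CPM in vastus lateralis, again without overlap.

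Of 24 axon guidance genes, 4 rose and 1 fell, where 0.605% and 0.43% of all genes did. Epha3 and Epha7, receptors for ephrins, rose by 1.69 ± 0.30 and 1.26 ± 0.17, Slit2, the repellent ligand of Robo receptors, by 1.30 ± 0.20 and Gdnf, a neurotrophic factor of motor neurons, by 1.66 ± 0.31. Slit2 had 13.1 to 29.6 CPM in vastus intermedius and 5.94 to 12.9 CPM in vastus lateralis without collection B. In collection B, Epha7 had 35.7 and 36.8 CPM and Slit2 19.2 and 18.7 CPM in vastus intermedius and vastus lateralis, so neither differed there by more than 0.05 (log2), whereas Gdnf ran the other way by 2.20. Epha4, another ephrin receptor, fell by 0.49 ± 0.09 and was lower in 6 of 6 pairs.

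Of 37 limb patterning genes 1 rose and none fell, where 0.605% and 0.43% of all genes did. This gene, Hotair, a long noncoding RNA of the HoxC cluster (chromosome 15, 102944062 to 102947946), rose by 1.96 ± 0.30, with 1.06 to 3.34 CPM in vastus intermedius and 0.409 to 1.03 CPM in vastus lateralis without collection B. Without a stated strand setting its reads cannot be told apart from those of genes on the other strand. Hhip, which binds and restrains hedgehog ligands, rose by 1.76 ± 0.31, with 3.71 to 11.4 CPM in vastus intermedius and 1.27 to 5.47 CPM in vastus lateralis, and was higher in 6 of 6 pairs, by 0.20 in collection B. The cell cycle, satellite cell, neuromuscular junction and immediate early lists had no member that passed without collection B.

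Other cell types moved with these results in several collections, and their part in the results was not tested. The summed level of 7 muscle spindle genes, which mark the stretch receptors of muscle, was 219, 261, 263 and 152 CPM in vastus intermedius of collections A, C, D and E, against 62.2, 76.1, 99.4 and 52.1 CPM in vastus lateralis. In collections B and F it ran the other way, with 62.6 and 72.8 CPM in vastus intermedius and 171 and 114 CPM in vastus lateralis. Gdnf belongs to that list. So do Myh7b, which is also counted among the slow sarcomere genes, and Egr3, which is also an immediate early gene here. The spindle sum is therefore not separate from the slow sarcomere list. The sum of 11 tendon genes was 528 to 1145 CPM in vastus intermedius and 510 to 1067 CPM in vastus lateralis. Thbs4, 1 of the 11, rose without collection B by 0.70 ± 0.11, where 0.605% of all genes rose. Of 11 cartilage genes tested, 2 rose, against 0.605% of all genes, Col9a2 by 0.70 ± 0.13 and Col9a3 by 1.65 ± 0.28, while the sum of the cartilage list was 177 to 502 CPM in vastus intermedius and 171 to 398 CPM in vastus lateralis.

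The vastus intermedius of collection F held the most bone marker RNA, with a sum of 174 CPM against 55.1 to 86.4 CPM in the other 5 vastus intermedius libraries and 47.3 to 98.1 CPM in vastus lateralis. Its Sp7 and Runx2, transcription factors of osteoblasts, stood at 6.99 and 8.08 CPM, against 1.11 and 2.24 CPM or less in the other 11 libraries. Erythroid genes were highest in both libraries of collection F, at 948 CPM in vastus intermedius and 1252 CPM in vastus lateralis, and 74.99 to 191 CPM elsewhere. In collection B the library labelled vastus lateralis had 170 CPM of 9 marrow genes, against 4.34 CPM in the one labelled vastus intermedius and 0.445 to 16.3 CPM in the other 10. Schwann cell genes were highest in the vastus intermedius of collection C at 697 CPM, with 431 to 515 CPM in the other 5 and 395 to 459 CPM in vastus lateralis. Without collection B, Osr2 (0.89 ± 0.14) rose and Gsn (-0.49 ± 0.06) fell among 12 fibroblast genes. Flt1 (0.35 ± 0.06) of 13 endothelial genes and Rgs5 (0.49 ± 0.09) of 12 mural cell genes rose. Of all genes, 0.605% rose and 0.43% fell in that fit.

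**Figure D4:**
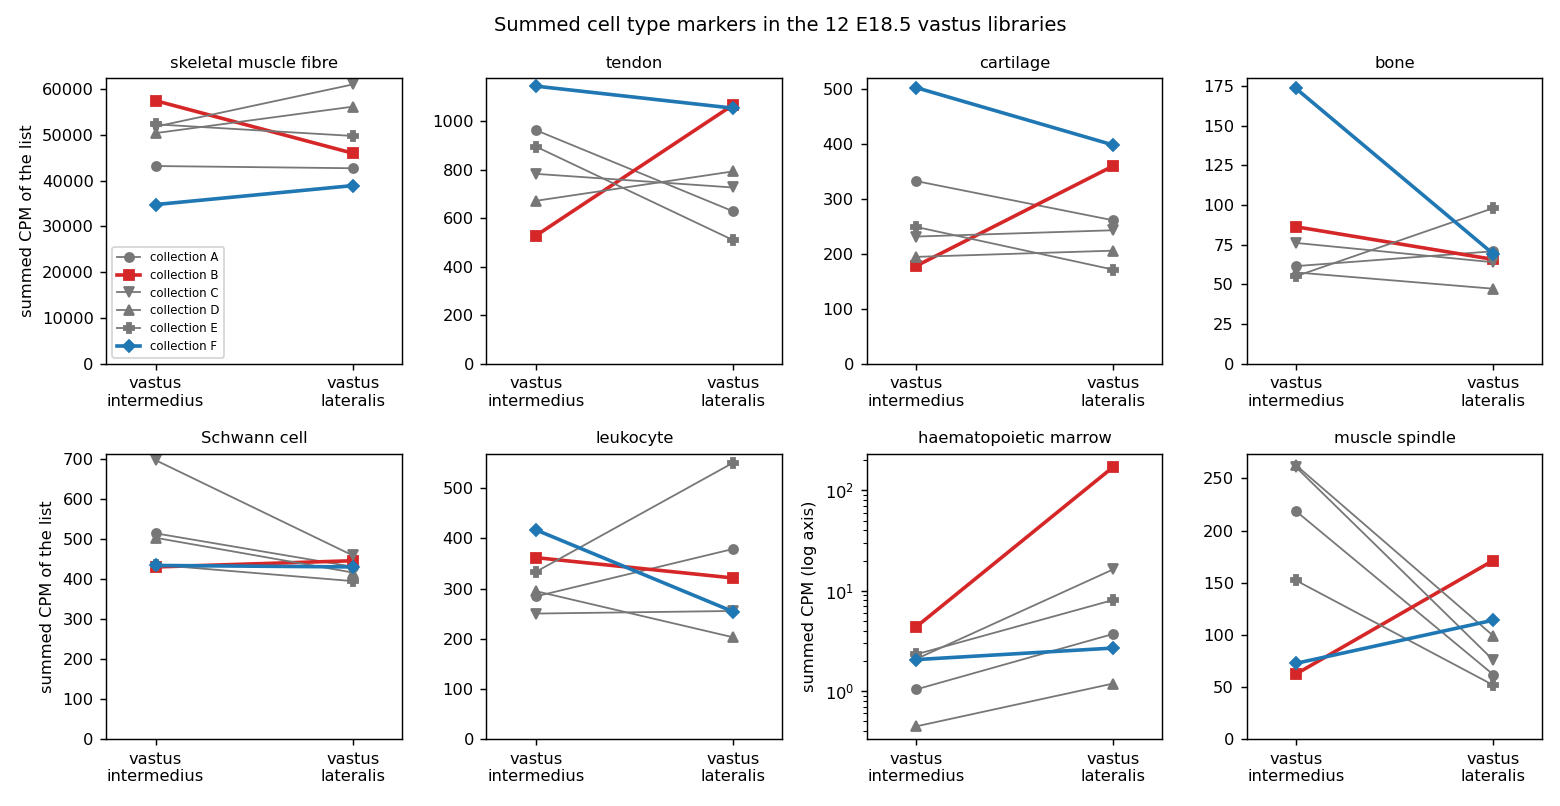
Summed CPM of 8 cell type marker lists in the 12 libraries, vastus intermedius left of vastus lateralis, with a line joining the libraries of a collection; the marrow panel has a log axis and the others start at 0. Collection F (blue) has the lowest fibre sums and the highest bone sum, collection B (red) has the highest marrow sum, 170 CPM in the library labelled vastus lateralis, and the spindle lines of B and F rise where the other 4 fall.

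The 2 discordant collections were set beside the calls of fits that left them out. Of the 166 genes called without collection B, 138 ran the opposite way in collection B and 27 the same way, and 59 of the 138 did so by more than 0.5 (log2) against 6 of the 27. Among the 6 were S100a8, Bmper, Tmeff2, Gdpd2 and Plvap, named here after their values were seen. Genes that kept their direction by smaller amounts included Islr2 and Fbln5. Collection B was chosen on Myh7, and a reversal of genes that follow Myh7 is fixed by that choice. Of the 870 genes called without collections B and F, 753 ran the opposite way in B and 116 the same way. In collection F the same 870 genes were split evenly, 433 the same way and 437 the opposite way. The 870 include all 166 genes of the fit that used collection F, and the others did not pass with F in that fit. The split is therefore fixed in part by the selection, and nothing is read from it.

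**Figure D5:**
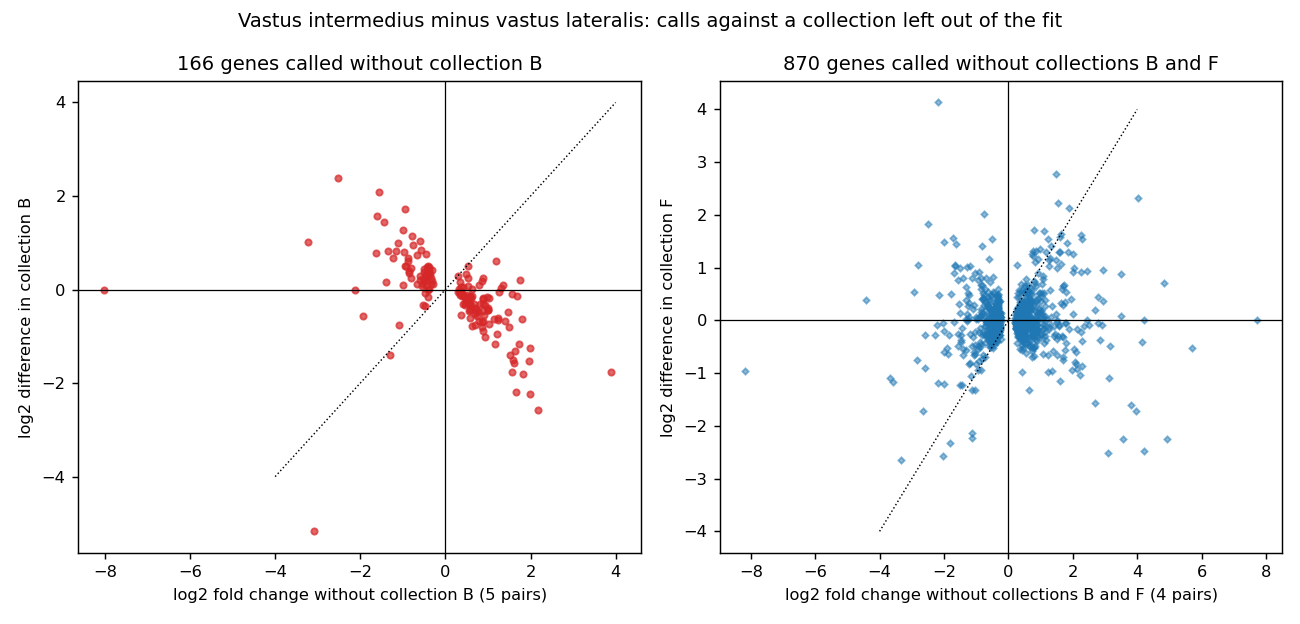
Log2 fold change (vastus intermedius minus vastus lateralis) of called genes against the within-pair difference in a collection that did not enter the fit, 1 point per gene, with a dotted line of equality. Left, 166 genes called without collection B lie mostly in the quadrants of opposite sign (138 against 27). Right, 870 genes called without collections B and F ran the same way in collection F for 433 and the opposite way for 437. The calls depend on which collection was left out, so neither panel is a separate test.

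In adults the same contrast involved many more genes. One adult library went against its stage label, since the vastus intermedius of adult collection B held 11381 total-count CPM of embryonic Myh3 where the median of its group was 11.2, and the adult fit here leaves that collection out. Adult vastus muscles then differed at 6331 of 14386 genes (44%), and 19 of 20 slow sarcomere genes rose, where 23.8% of all genes did. The list median was 8.98 (log2) in adults, beside 0.93 at E18.5 without its collection B, where 4 of the 20 rose. In total-count CPM over all 6 libraries a group, Myh7 had a median of 1073 (13.3 to 3120) in E18.5 vastus intermedius and 3203 (719 to 8992) in adult vastus intermedius. Its median was 152 (49.7 to 1553) in E18.5 vastus lateralis and 0.0201 (0 to 6.42) in adult vastus lateralis, the adult median being below the floor. Of the 166 E18.5 calls, 156 were tested in adults, 116 also passed there, and 92 of these had the same direction and 24 the opposite one, so that same-direction calls were 59.0% of the E18.5 list tested and 1.49% of the 6185 adult calls tested at both stages.

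A test of the difference between the stages (E18.5 contrast minus adult contrast) called 4254 of 16636 genes (25.6%) with all collections and 5420 of 16502 (32.8%) without collection B of either stage. In the second fit the slow genes were among the largest, with Tnni1 at -9.42 ± 0.66, Tnnt1 at -9.26 ± 0.74 and Csrp3 at -8.29 ± 0.62 (log2, SE), each a smaller excess in vastus intermedius at E18.5. Myh4 differed by 2.74 ± 0.80 (adjusted p = 0.0181), a smaller deficit at E18.5. Myh2 was near even at E18.5 and higher in adult vastus intermedius, with a difference of -7.35 ± 0.20.

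Some E18.5 calls had the opposite direction in adults. Epha7 rose by 1.26 at E18.5 and fell by 2.19 in adults, a difference of 3.45 ± 0.27, and Epha4 fell by 0.49 and rose by 1.21, a difference of -1.68 ± 0.21. Pfkl fell by 0.31 at E18.5 and rose by 1.09 in adults. For other calls the difference between the stages did not pass, namely Myl6b at -0.11 ± 0.49, Hotair at -0.19 ± 0.74, Dmrt2 at -0.29 ± 0.38, Fst at -0.24 ± 0.25, Slit2 at -0.07 ± 0.40 and Pvalb at 0.77 ± 0.77, with errors that leave room for differences of that size. Tmeff2, Vtn and Bmper differed between the muscles at E18.5 but by 0.09, -0.06 and -0.05 in adults, and the difference between the stages passed for each, at -1.14 ± 0.26, -2.06 ± 0.21 and -1.25 ± 0.31.

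The thigh pair was also set against the shank pair at E18.5, soleus against gastrocnemius, the same slow-to-fast contrast in another segment of the limb. With all 24 E18.5 libraries the contrasts differed at 2 of 16412 genes (0.0122%). Grik3, a kainate glutamate receptor, differed by 0.75 ± 0.18 in the thigh and -1.34 in the shank, a difference of 2.11 (adjusted p = 0.0293). Pla1a, a phospholipase of phosphatidylserine, differed by -0.07 in the thigh and -1.77 in the shank, a difference of 1.70 (0.0256). Without collection B, 8 of 16269 genes passed (0.0492%), 5 with a larger value in the thigh (0.0307%) and 3 with a smaller one (0.0184%). Besides Grik3 and Pla1a they were Slit2 (2.60), Dact1, a modulator of Wnt signalling (1.00), and a gene known only by its identifier among those larger in the thigh, and Vtn (-1.89), Ntrk2, the receptor of BDNF (-1.80), and Phlda3, a repressor of Akt signalling (-0.84), among those smaller. Ntrk2 had 22.8 to 54.2 CPM in vastus intermedius and 73.6 to 105 CPM in vastus lateralis without collection B, and 40.2 and 22.5 CPM in collection B. Each of these 8 had an adjusted p of 0.0395 in that fit. For Myh7 the difference between thigh and shank was 1.23 with adjusted p = 0.98, and a p of that size does not show that the contrasts are alike.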

How the data were processed

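Raw counts of reads per gene, not normalized, were deposited in 1 table, beside tables of the authors' own comparisons, whose log2 fold changes and p-values were not used; those tables served to pair identifiers with symbols. Per the submitters' processing notes the build was mm10 and the tools named were STAR 2.7.11, Subread 2.0.6 (featureCounts), Trimmomatic 0.39.0, FastQC 0.11.5 and DESeq2 1.44.0. No source used here states the gene annotation or the strand setting. Per the labels' protocols, RNA of integrity number above 7 was made into random-primed mRNA libraries, only males were used, and all muscles came from the same animals. Adult ages in the labels differ, so that stage is called adult. Of 27179 genes, 18780 took symbols from the comparison tables and 6501 from RefSeq.

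Counts were fitted in R 4.3.3 with edgeR 4.0.16 (TMM, filterByExpr, quasi-likelihood F test), with collection as a block and muscle as the effect, and Benjamini-Hochberg adjustment over all genes tested at 0.05. An SE is the log2 fold change divided by the square root of F. Within-pair differences are log2 CPM with a prior count of 2. DESeq2 1.42.0, limma-voom (limma 3.58.1), other scalings, no filter, no block, all E18.5 libraries and leaving out each collection were alternatives. The edgeR fit of vastus intermedius against vastus lateralis was tested on simulated counts for 6 and for 5 pairs. The fits of stage and of thigh against shank were not. Floors cover counting error only, whereas an SE comes from a fit whose dispersion also takes in variation among pairs. Pairing rests on the date tags and the labels: columns carry no embryo number, collections C, D and E share 1 of 4 dates, and no source used here says whether embryos of a date are littermates. Deviations from the group means correlated within collections by 0.117, -0.130, 0.0772, 0.127, 0.116 and 0.337 (A to F, mean 0.107) and between collections by -0.0215.

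The members and gene lists were chosen with earlier results of these data known. Named genes were the 10 largest changes in each direction among calls with the same sign in every pair, the 10 of lowest p where fewer than 10 passed, the 5 largest in each direction of each interaction, called or lowest-p list members, and 15 fixed fibre genes. A few genes that these rules name are not reported here.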

Additional observations from a re-analysis of the deposited data

Results flagged for a closer look

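Groups of 6 libraries were screened for a value standing apart from the other 5, over 41 genes in both muscles (82 groups), and 23 were flagged, where chance flags about 1 in 20 groups. The genes were chosen in part through collection B, by Myh7 or by a fit without it, so the number of flags is not to be read against chance. Of these, 15 were the collection B library labelled vastus lateralis, each a highest value. They were Myh7 (1519 CPM, next 229), Myl3 (351, next 28.9), Myl2 (396, next 34.5), Tnnt1 (903, next 403), Myl6b (234, next 76.5), Vit (2.53, next 0.444), Slc6a18 (8.61, next 2.63), Cldn1 (11.9, next 3.67), Hotair (2.95, next 1.03), Mpped2 (10.95, next 4.20), Cnksr1 (3.89, next 1.23), Kcnk1 (5.90, next 2.08), S100a8 (27.8, next 4.74), Camp (9.92, next 0.483) and Stfa2 (6.93, next 2.20). In the library labelled vastus intermedius of collection B, Tbx15 (246 CPM), Stfa2 (0.416) and Camp (0.0462, from 1 count where the others had 0) were highest. The remaining flags were Eps8 in vastus intermedius A (43.2 CPM), Plvap (47.0) and Adipoq (0.0407) in vastus intermedius E, Adipoq in vastus lateralis E (17.4), and Tmem132e in vastus intermedius F (3.92).

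The contrast differed between thigh and shank for Grik3 (2.11, log2) and Pla1a (1.70), by the test of that difference. Between stages (E18.5 minus adult), the largest positive differences were Kcns1 (8.91, and 9.02 without collection B of either stage), Rps28 (7.77, then 9.68), Ppm1n (6.95, then 5.90), Mss51 (5.20, then 4.73) and the unnamed gene ID329876 (5.17, then 7.34). Kcns1, Rps28, Ppm1n and ID329876 had at most 1.29 CPM in every E18.5 vastus library. The largest negative ones were Myh7 (-10.81, then -9.01), Wnt16 (-10.34, then -10.25), Tnni1 (-10.06, then -9.42), Igf2bp1 (-10.69) and Magel2 (-10.12). For the last pair the difference without those collections was -0.01 and -0.15, so both rested on them.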

How the results depend on the processing

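With all 6 pairs, rescaling left the count of called genes at 0, no filter gave 8, DESeq2 87, limma-voom 1, no replicate block 1, and all E18.5 libraries 4 with the replicate block and 5 without it; leaving out 1 collection gave 0 to 166. Without collection B, other scalings gave 168 each (165 and 166 shared with the 166), no filter 384, DESeq2 727 (165 shared), limma-voom 237, no replicate block 48, and all E18.5 libraries 225 with the block and 100 without it; leaving out a further collection gave 4 (C) to 870 (F). Both thigh-against-shank calls were lost without the replicate block (0), and 8 passed without collection B. The stage count stayed within 1.5 times (3498 to 5653; 4840 with no replicate block). The Myh7 share difference stayed positive, at 1.09 to 3.78 points when 1 collection was left out, and did not pass with counts not scaled by length (2.25) or with an exact permutation of libraries, no replicate block (p = 0.197), both added after the data were seen, or as log2 CPM (1.21). With 6 pairs, leaving out 1 collection moved Myh1 over -0.0048 to 0.292 and Sln over -0.0247 to 0.084. Of single-gene values, 274 of 309 kept their side with 6 pairs and 33 passed in addition. With 5 pairs 177 of 259 kept it and 82 no longer passed. Depth limited values near the floors, which were 0.145 CPM or less.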
